A study of Mus musculus with 6 samples.

Results

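The Egr genes (Egr1, Egr2, Egr3, Egr4) and Nr4a genes (Nr4a1, Nr4a2, Nr4a3) encode transcription factors of the early response in neurons, and are described here with the early response genes Ier2 and Ier5. They were taken by gene symbol, as a set drawn up with earlier results of these data known, and all isoform rows carrying these symbols were used. This gave 9 genes of 52204 and 37 isoform rows of 141196. Cerebral cortex of C57BL/6 mice was measured by direct RNA sequencing, in which a nanopore reads each polyadenylated RNA molecule itself and so gives both its identity and the length of its poly(A) tail. The 6 samples were 3 from Fmr1 knockout (KO) mice and 3 from wild-type (WT) mice of the same strain. Age, sex and the knockout allele are not given in the labels, nor whether the samples of a genotype came from separate animals, so p-values measure the spread between these samples, which may be technical.

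Early response genes are transcribed within minutes of synaptic activity, through factors already present in the cell, and their mRNAs are short-lived. Egr proteins are zinc finger factors that bind GC-rich DNA, and Nr4a proteins are orphan nuclear receptors whose activity follows their amount rather than a known ligand. A poly(A) tail is added in the nucleus and trimmed in the cytoplasm, and FMRP, the RNA-binding protein that Fmr1 encodes, represses translation in neurons.

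Libraries held 2404074 to 3849077 reads with a tail, and Fmr1 was low in every knockout library, at 10.9, 11.8 and 8.21 CPM in KO against 41.7, 45.1 and 46.4 CPM in WT (CPM here are reads with a tail, scaled to library size with TMM factors). Its log2 change was -2.13 ± 0.15 (SE; edgeR, adjusted p = 1.68e-10). The median gene tail was 142, 141 and 145 nt in KO and 142, 146 and 147 nt in WT, over 11231 genes with 10 or more reads in each sample. All markers of excitatory and inhibitory neurons, astrocytes, oligodendrocytes and microglia that were checked were detected in all samples, with an excitatory neuron sum of 1557 to 1678 CPM in KO and 1362 to 1588 CPM in WT (marker sums are CPM without TMM factors). The 4 choroid plexus markers, a list of a neighbouring tissue, summed to 18.1, 26.2 and 12.8 CPM in KO and to 436, 31.2 and 839 CPM in WT, almost all of it Ttr. Folr1 was at 0 in KO replicate 1, and Kcne2 was at 0 in KO replicates 1 and 3 and in WT replicate 2. Thalamus markers were highest in WT replicate 1, at 138 CPM, against 34.3 to 78.6 CPM in KO and 32.6 and 36.1 CPM in the other WT libraries. All 5 striatum markers were detected in all samples, with sums of 332.7 to 380.1 CPM in KO and 312.4 to 415 CPM in WT. Blood markers summed to 987.1 to 1096 CPM in KO and to 777.5, 1243 and 1419 CPM in WT.

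In knockout cortex, 4 of the 9 genes had shorter tails in every sample than in any WT sample: Egr1, Egr2, Egr4 and Nr4a1. The differences were 21.3 to 31.0 nt. Over all 11231 genes tested, 8.45% had tails that were lower in KO with no overlap between the genotypes. None of the 9 passed the test over all genes (limma, adjusted p under 0.05), and neither did any other gene (0%), while 737 (6.56%) had an unadjusted p under 0.05. With the variance modelled on read number instead of tail length, 15 genes passed, 11 of them shorter in KO, and Egr1, Egr4 and Nr4a1 were among them. Across the 9 genes, 7 had a negative log2 change and 2 a positive one, with a median of -0.20 against -0.02 over all genes tested, of which 61.9% were below 0. The shorter Egr1, Egr4 and Nr4a1 tails were known when the set was drawn up. Setting the counts and median of the 9 genes beside all genes is therefore a description and not a test. In abundance by reads with a tail, no gene of the 9 was lower in KO without overlap (8.26% of 12421 genes tested were), and Ier5 alone of the 9 passed the test, with a higher level in KO.

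**Figure D1:**
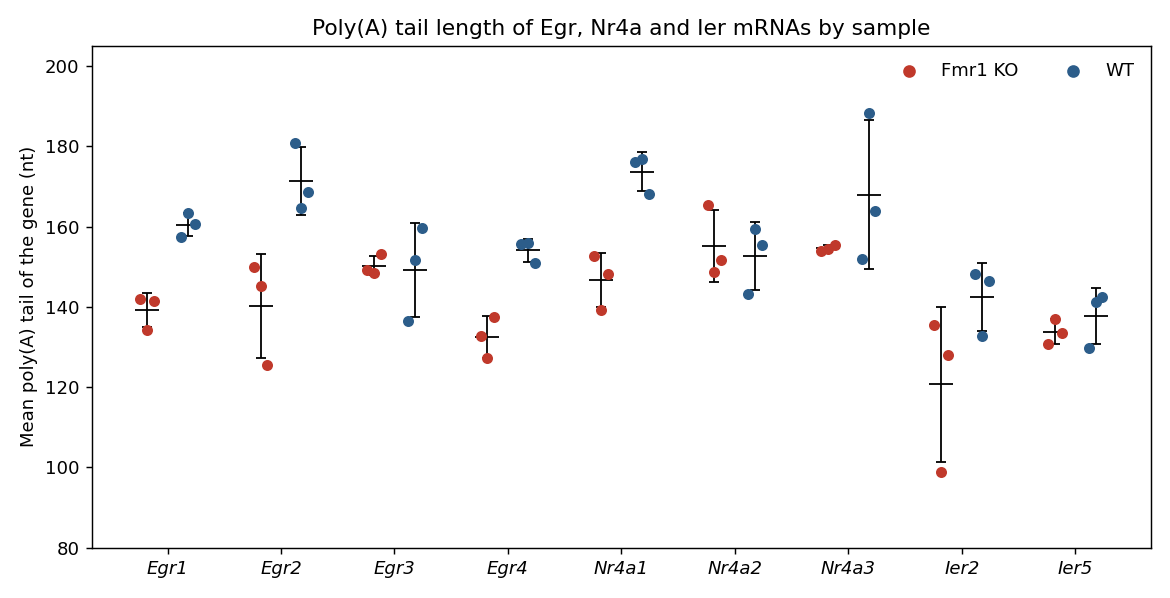
Tail length (nt, mean) for each gene, over all its reads, in 3 Fmr1 KO samples (red, left of each pair) and 3 WT samples (blue, right of each pair); horizontal bars are means and error bars are SD over 3 samples. All KO points lie below all WT points for Egr1, Egr2, Egr4 and Nr4a1, and the genotypes overlap for the other genes.

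Egr1 encodes the most studied factor of its family, used widely as a mark of recent neuronal activity. It lies on the plus strand of chromosome 18 at 34859823 to 34864984 (mm10, as are all positions below). Its mean tail was 142, 134 and 141 nt in KO, from 1047, 869 and 1306 reads, against 157, 163 and 161 nt in WT, from 781, 1051 and 1297 reads. Every KO value was thus below every WT value, and the gap between the groups was wider than the range within either. The means were 139 ± 4.28 nt in KO and 160.5 ± 2.96 nt in WT (SD, n = 3 each), a log2 change of -0.20 ± 0.04 (SE; limma, unadjusted p = 0.00209, adjusted p = 0.650). Nearly all of these reads (99.2%) belonged to a 2-exon isoform, ENSMUST00000064795.5, with a log2 change of -0.20 (limma, adjusted p = 0.736). The other isoform had 50 reads in all and too few in each sample to be tested.

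Egr2, known from other tissues as Krox20 and a regulator of myelination, had tails of 150, 145 and 126 nt in KO and 181, 165 and 169 nt in WT. The groups did not overlap, but the KO values were spread widely and the means rested on 22 to 91 reads per sample. They averaged 140.3 ± 12.9 nt in KO and 171 ± 8.53 nt in WT, a log2 change of -0.29 ± 0.08 (limma, adjusted p = 0.705). The deposited table listed Egr2 under 2 gene records with the same transcript lengths, ENSMUSG00000037868 with 131 reads and ENSMUSG00000116458 with 134. Reads of the same molecule type may have been split between them, so they were added together here. Taken apart, the records had log2 tail changes of -0.25 and -0.32 (limma, adjusted p = 0.701 for both).

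Egr4, a member needed for male fertility in mice, has a single isoform row. Its tails were 133, 127 and 137 nt in KO from 229, 185 and 271 reads, and 156, 156 and 151 nt in WT from 164, 286 and 328 reads. All KO values were below all WT values. The averages were 132 ± 5.15 nt in KO and 154 ± 2.87 nt in WT, a log2 change of -0.22 ± 0.04 (limma, unadjusted p = 0.00174, adjusted p = 0.626).

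Egr3 is a factor that acts downstream of neuronal activity and is needed for muscle spindle development in mice. Its tails were 149, 148 and 153 nt in KO and 137, 152 and 160 nt in WT. The WT values enclosed the KO values. The averages were 150.3 ± 2.45 nt in KO and 149 ± 11.7 nt in WT, with a log2 change of 0.01 ± 0.06 (limma, adjusted p = 0.986).

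Among cofactors of these proteins, a list of 7 genes, 3 had lower and 4 higher tails in KO and none passed the test. Nab2, a corepressor that binds Egr proteins, was closest to it, at 147 ± 2.86 nt in KO and 165 ± 3.82 nt in WT (log2 -0.16; limma, unadjusted p = 0.00630, adjusted p = 0.705), with no overlap between the groups. Rxra, a nuclear receptor that pairs with Nr4a proteins, had 139 ± 10.7 nt in KO and 128 ± 7.21 nt in WT, which overlapped. Nab1, the other Nab corepressor, had 149.5 ± 10.8 nt in KO and 155 ± 0.73 nt in WT, which overlapped too.

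Nr4a1 (Nur77) encodes the receptor of its family with the most reads here. Its tails were 153, 139 and 148 nt in KO from 333, 255 and 468 reads, and 176, 177 and 168 nt in WT from 327, 537 and 738 reads. Each KO sample was below each WT sample. The averages were 147 ± 6.81 nt in KO and 174 ± 4.79 nt in WT, a log2 change of -0.24 ± 0.05 (limma, unadjusted p = 0.00221, adjusted p = 0.650).

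Nr4a2 (Nurr1), which is needed for midbrain dopamine neurons, had tails of 165, 149 and 152 nt in KO and 143, 159 and 155 nt in WT. The groups overlapped. Averages were 155 ± 9.003 nt in KO and 153 ± 8.45 nt in WT, with a log2 change of 0.02 ± 0.06 (limma, adjusted p = 0.982).

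Nr4a3 (NOR-1) had tails of 154, 154 and 156 nt in KO and 152, 188 and 164 nt in WT, from 39 to 77 reads per sample. The KO samples lay close together, and WT replicate 1 was below all of them. The averages were 155 ± 0.89 nt in KO and 168 ± 18.5 nt in WT, with a log2 change of -0.11 ± 0.08 (limma, adjusted p = 0.866). Leaving out WT replicate 2 made it -0.03, and leaving out WT replicate 1 made it -0.18.

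Ier2 and Ier5 encode related nuclear proteins that are induced with the factors above, and Ier5 is known to join the heat shock factor Hsf1 to a protein phosphatase. Ier2 tails were 135, 98.9 and 128 nt in KO and 148, 133 and 146 nt in WT. KO replicate 1 was above WT replicate 2, and the low value of KO replicate 2 came from 45 reads. The log2 change was -0.25 ± 0.12 (limma, adjusted p = 0.780), and -0.11 without KO replicate 2 (limma, adjusted p = 0.888). Ier5 tails were 131, 137 and 133 nt in KO and 130, 141 and 142 nt in WT. These overlapped, with a log2 change of -0.04 ± 0.05 (limma, adjusted p = 0.944).

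Choroid plexus markers were higher in WT replicates 1 and 3 than elsewhere, and their part in the tail differences was not tested. In WT replicate 2, where they summed to 31.2 CPM, tails were 163 nt for Egr1, 165 nt for Egr2, 156 nt for Egr4 and 177 nt for Nr4a1. Each was above the KO range, and that of Egr2 was the shortest of the WT values. Leaving out each library in turn gave log2 tail changes of -0.22 to -0.18 for Egr1, -0.34 to -0.21 for Egr2, -0.24 to -0.19 for Egr4 and -0.27 to -0.21 for Nr4a1. Of all reads recovered from the deposited RPM for the 9 genes, 71.7, 72.8 and 74.5% had a tail estimate in KO, against 72.1, 77.6 and 82.0% in WT. Over all genes these shares were 75.2, 74.8 and 77.3% in KO and 76.2, 80.8 and 85.0% in WT. The part of this share in the tail differences was not tested.

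Within WT cortex the set spanned much of the range of brain mRNAs. Mean WT tails ran from 138 nt for Ier5, longer than 36.4% of genes, to 174 nt for Nr4a1, longer than 87.7%. In order they were Nr4a1 (174 nt), Egr2 (171 nt), Nr4a3 (168 nt), Egr1 (160.5 nt), Egr4 (154 nt), Nr4a2 (153 nt), Egr3 (149 nt), Ier2 (142 nt) and Ier5 (138 nt). Among neighbours in that order, Egr1 and Egr4 alone had means further apart than either SD, and the median WT gene tail was 145 nt. In knockout cortex Nr4a3 and Nr4a2 (both 155 nt) stood at the top, and Ier2 (121 nt) and Egr4 (132 nt) at the bottom.

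Of the 9 genes, 4 had at least 2 isoforms with 10 or more reads in each sample, which allowed tails to be compared within a library. The compared isoforms of a gene overlap along it, and how well reads were assigned between them was not tested. In all, 13 of the 37 isoform rows reached that number and held 98.1% of the 17308 reads of the set. A further 10 had some reads, and 14 had 0. For Nr4a1, the tested isoforms ENSMUST00000023779.7 (7 exons) and ENSMUST00000228985.1 (8 exons) share their annotated 3′ end at 101274795 on chromosome 15 and start at 101266846 and 101254269. The 7-exon isoform, with 66.7% of the gene's reads, had tails of 145, 136 and 147 nt in KO and 176, 173 and 166 nt in WT. The 8-exon isoform had 167, 144 and 151 nt in KO and 177, 186 and 173 nt in WT. Both were thus shorter in every KO sample than in any WT sample, where 7.53% of 16168 tested isoforms were lower without overlap. Log2 changes were -0.27 ± 0.05 (limma, adjusted p = 0.704) for the 7-exon form and -0.21 ± 0.07 (limma, adjusted p = 0.801) for the 8-exon form. No isoform of any gene passed at the isoform level with limma (0%), where 944 (5.84%) had an unadjusted p under 0.05. With the variance modelled on read number, 11 passed, among them the Egr1, Egr4 and 7-exon Nr4a1 isoforms.

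**Figure D2:**
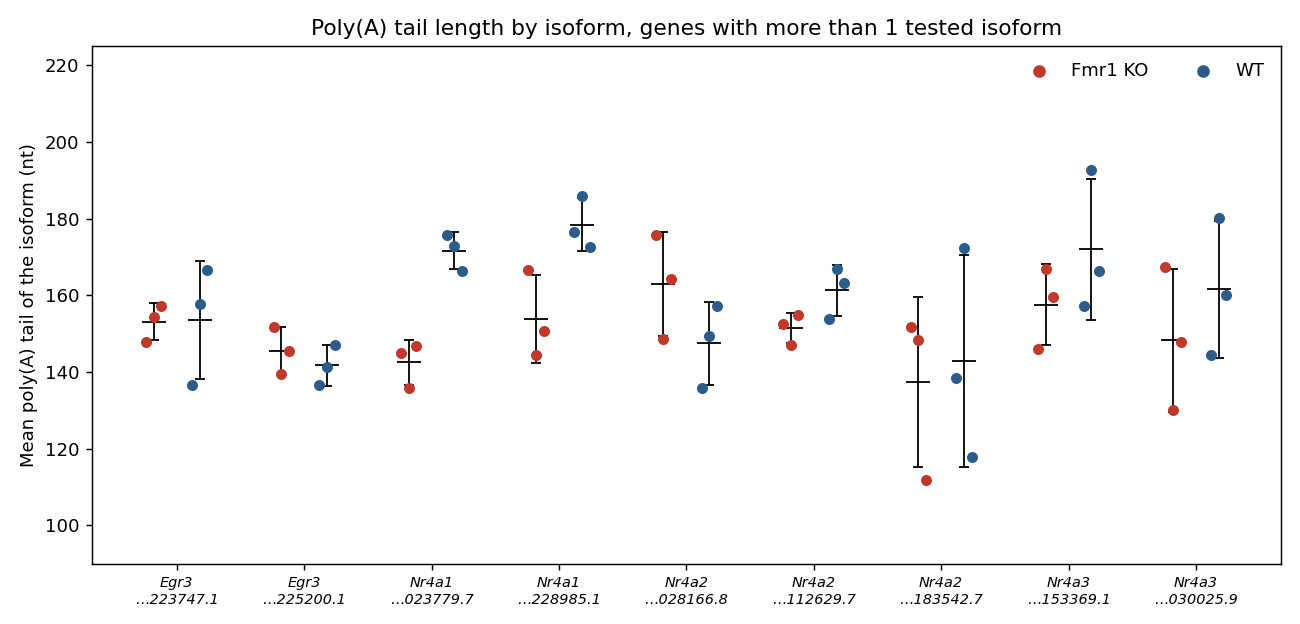
Tail length (nt, mean) for each tested isoform of the genes with more than 1, in 3 Fmr1 KO samples (red, left) and 3 WT samples (blue, right); bars are means and SD over 3 samples, and labels give the last digits of the Ensembl transcript. Both Nr4a1 isoforms lie lower in KO without overlap, while the leading Nr4a2 isoforms lie in opposite orders in KO and WT.

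The 8-exon Nr4a1 isoform had a longer tail than the 7-exon isoform in 6 of 6 samples, by 9.07 ± 7.44 nt (SD; two-sided exact sign-flip permutation test, p = 0.03125, the smallest 6 samples allow, adjusted p = 0.125 over 4 genes). For Egr3, 64.4% of reads were assigned to ENSMUST00000223747.1, a row annotated as a retained intron, and its tails exceeded those of the coding isoform ENSMUST00000225200.1 in 4 of 6 samples, with a difference of -9.72 ± 9.52 nt for coding minus retained intron (exact test, p = 0.125, adjusted p = 0.25). For Nr4a3, ENSMUST00000030025.9 minus ENSMUST00000153369.1 was -9.83 ± 18.6 nt (exact test, p = 0.281, adjusted p = 0.375). For Nr4a2, ENSMUST00000112629.7 minus ENSMUST00000028166.8 averaged 1.20 ± 15.98 nt (exact test, p = 0.875). The leading Nr4a2 form had 163 ± 13.5 nt in KO and 147 ± 10.7 nt in WT, and the next form 151 ± 4.03 nt in KO and 161 ± 6.73 nt in WT, and neither passed the test over all isoforms.

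Sequences near the annotated 3′ ends are shown because the tail is added there, a short and variable distance after a poly(A) signal. The windows below come from GENCODE mouse release 21 transcripts, 5′ to 3′, for the isoform with most reads that the annotation holds, and capitals mark the signal hexamer. They are those of the genes with shorter tails in every KO sample, apart from Egr1, and of the other Nr4a and Ier genes.
Egr2 (chromosome 10): gactatggtgtaAATAAAtacttttcaaca
Egr4 (chromosome 6): tttatttttgcaATTAAAattattgtgcta
Nr4a1 (chromosome 15): tttaatatattgAATAAAaaatagacatgt
Nr4a2 (chromosome 2): aatgtttacaacAATAAAccacgtaaatga
Nr4a3 (chromosome 4): ttaaatgattaaATTAAAttacattttacc
Ier2 (chromosome 8): gtcagctaggaaAATAAAgaccatcggtgt
Ier5 (chromosome 1): aataatacatagAATAAAacatgctttaat

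Egr4 and Nr4a3 carry ATTAAA and the other 5 AATAAA, with 15 to 22 bases between the hexamer and the annotated end. In 14112 tested coding isoforms, 67.8% hold AATAAA and 18.9% hold ATTAAA in the last 50 bases. The tested Egr3 rows hold neither there. The letters TTTTAT or TTTTAAT, the site that the CPEB proteins of cytoplasmic polyadenylation recognise, occur in the last 100 bases of 18.4% of those isoforms. Among tested rows here, the 3 Nr4a2 isoforms and the retained-intron row of Egr3 hold them, and the 9 other tested rows do not, both those with tails lower in KO without overlap (Egr1, Egr4 and Nr4a1) and those whose tails overlapped (coding Egr3, Nr4a3, Ier2 and Ier5). ATTTA, the core of AU-rich elements, occurs 3 times in the Nr4a1 3′ UTR of 543 bases. Longer 3′ UTRs hold it 2 times (Egr1, Ier5), 3 times (Egr2, Nr4a2), 5 times (Nr4a3) and 7 times (coding Egr3). Those of Egr4 and Ier2 lack it, and 69.9% of isoforms hold 1 or more. TGTANATA, the Pumilio site, occurs 3 times in the Nr4a1 UTR, 2 times in that of Ier5 and 1 time each in those of Egr1, Egr2 and Nr4a3. The UTRs of coding Egr3, Egr4, Nr4a2 and Ier2 lack it, and 29.1% of isoforms hold it. These matches describe letters on the transcript strand only.

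Ier5, an intron-less gene on the minus strand of chromosome 1 at 155096361 to 155099636, had 121, 156 and 156 CPM in KO and 83.3, 105 and 119 CPM in WT. Every KO library was above every WT library, although KO replicate 1 was only just above WT replicate 3. Choroid plexus markers were lower in KO, and their part in the Ier5 difference was not tested. The averages were 144 ± 20.2 CPM in KO and 103 ± 17.99 CPM in WT, a 1.39-fold level in KO and a log2 change of 0.48 ± 0.10 (SE; edgeR, adjusted p = 0.0165). Of 12421 genes tested, 0.572% passed with a higher level in KO and 0.459% with a lower one. The call was lost without KO replicate 2 (log2 0.43, adjusted p = 0.119) or KO replicate 3 (log2 0.41, adjusted p = 0.137) in edgeR, and with DESeq2 (log2 0.50, adjusted p = 0.152). On all reads recovered from RPM, with or without a tail, edgeR gave a log2 change of 0.41 (adjusted p = 0.0560), and in the deposited RPM, which count all reads, the genotypes overlapped, with 117 in KO replicate 1 and 124 in WT replicate 3. In the authors' deposited table the Ier5 log2 value is -0.31 (DESeq2, unadjusted p = 0.0104), with the direction WT over KO inferred from positive values of Fmr1. In bulk tissue, more cells of a type and more RNA per cell cannot be told apart.

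**Figure D3:**
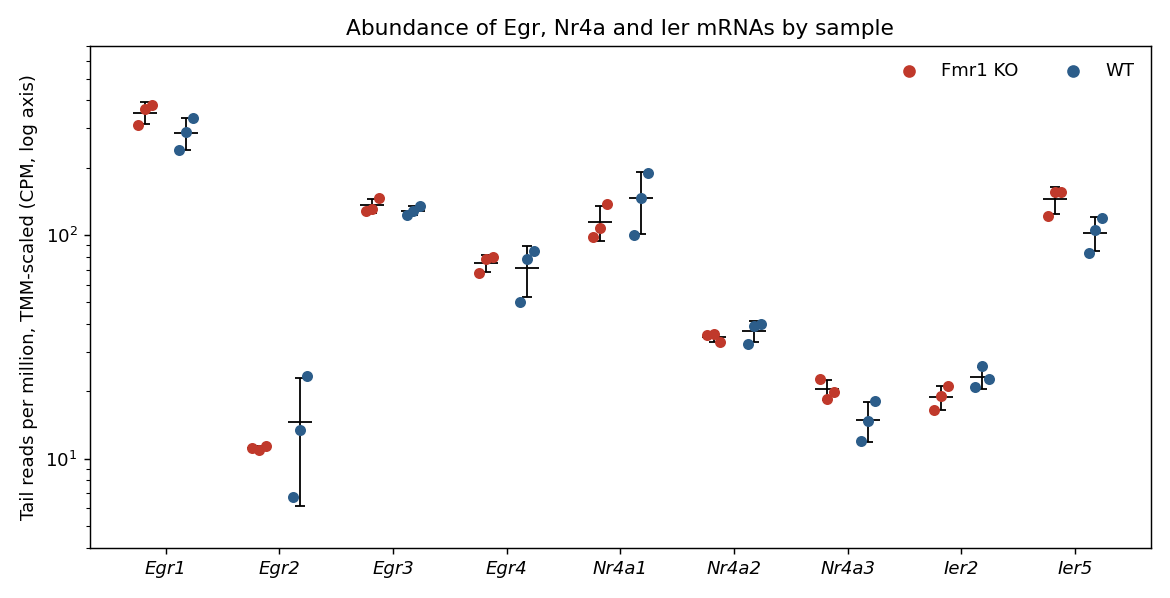
Abundance of each gene in CPM, from reads with a tail and TMM-scaled (log axis), in 3 Fmr1 KO samples (red, left) and 3 WT samples (blue, right); bars are means and SD over 3 samples. Ier5 and Nr4a3 lie higher in KO without overlap, and the WT samples of Egr2 and Nr4a1 are spread more widely than the KO samples.

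Nr4a3 was the other gene whose levels by reads with a tail did not overlap, at 22.7, 18.5 and 19.9 CPM in KO and 11.9, 14.8 and 18.03 CPM in WT. The lowest KO library was only just above the highest WT library. Its log2 change of 0.45 ± 0.17 did not pass the test (edgeR, adjusted p = 0.235), and 9.21% of all genes tested were higher in KO without overlap. In the deposited RPM its groups overlapped, at 21.7, 20.5 and 24.03 in KO and 11.6, 16.95 and 22.3 in WT.

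Egr1 was the most read of the 9 genes, above 95.7% of genes in mean WT RPM (reads scaled to library size and not divided by length, since each read starts at the tail of a molecule). It had 309, 366 and 383 CPM in KO and 239, 287 and 334 CPM in WT. The highest WT library exceeded the lowest KO library. The averages were 353 ± 38.9 CPM in KO and 287 ± 47.4 CPM in WT, a log2 change of 0.29 ± 0.09 (edgeR, adjusted p = 0.119). Without WT replicate 3 the change was 0.42 (edgeR, adjusted p = 0.00950), without WT replicate 1 it was 0.18 (edgeR, adjusted p = 0.257), and the WT libraries were spread about as widely as the genotypes differed. In the authors' deposited table the leading Egr1 isoform had a log2 value of -0.19 (DESeq2, unadjusted p = 0.0388), direction again taken as WT over KO.

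Nr4a1 had 98.2, 107 and 137 CPM in KO and 100.1, 147 and 190.0 CPM in WT. WT replicate 1 lay near the lowest KO library and WT replicate 3 well above all others. The averages were 114 ± 20.4 CPM in KO and 146 ± 45.0 CPM in WT, a log2 change of -0.35 ± 0.14 (edgeR, adjusted p = 0.267). Without WT replicate 1, which also had the highest thalamus marker sum, the change was -0.55 (edgeR, adjusted p = 0.000265), and without WT replicate 3 it was -0.11 (edgeR, adjusted p = 0.784). In the authors' deposited table, the 7-exon isoform had a log2 value of 0.67 (DESeq2, unadjusted p = 0.0107) and the 8-exon isoform one of 0.28 (DESeq2, unadjusted p = 0.115), WT over KO.

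Egr2 had 11.2, 10.96 and 11.4 CPM in KO and 6.74, 13.4 and 23.4 CPM in WT. The WT libraries enclosed the KO libraries and were spread widely. Its log2 change was -0.41 ± 0.27 (edgeR, adjusted p = 0.567), 0.14 without WT replicate 3 (edgeR, adjusted p = 0.881) and -0.72 without WT replicate 1 (edgeR, adjusted p = 0.0597). Egr3 averaged 135 ± 9.77 CPM in KO and 128 ± 6.23 CPM in WT (edgeR, adjusted p = 0.722). Egr4 averaged 75.0 ± 6.49 CPM in KO and 71.0 ± 18.2 CPM in WT (edgeR, adjusted p = 0.881), with a log2 change of 0.06 that was -0.12 without WT replicate 1. Nr4a2 averaged 35.0 ± 1.66 CPM in KO and 37.3 ± 4.15 CPM in WT (edgeR, adjusted p = 0.778). Ier2 averaged 18.9 ± 2.30 CPM in KO and 23.2 ± 2.61 CPM in WT, a log2 change of -0.30 ± 0.15 (edgeR, adjusted p = 0.418). By reads with a tail, the levels of these 5 genes overlapped between the genotypes. In the deposited RPM, Ier2 was lower in KO without overlap, at 16.1, 16.8 and 18.4 in KO and 22.8, 23.4 and 26.1 in WT. The share of all genes that were so in RPM was not computed, so how common this is cannot be said. The test on reads recovered from it gave a log2 change of -0.44 (edgeR, adjusted p = 0.113), and the authors' deposited table has a log2 value of 0.48 (DESeq2, unadjusted p = 0.0419), WT over KO.

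**Figure D4:**
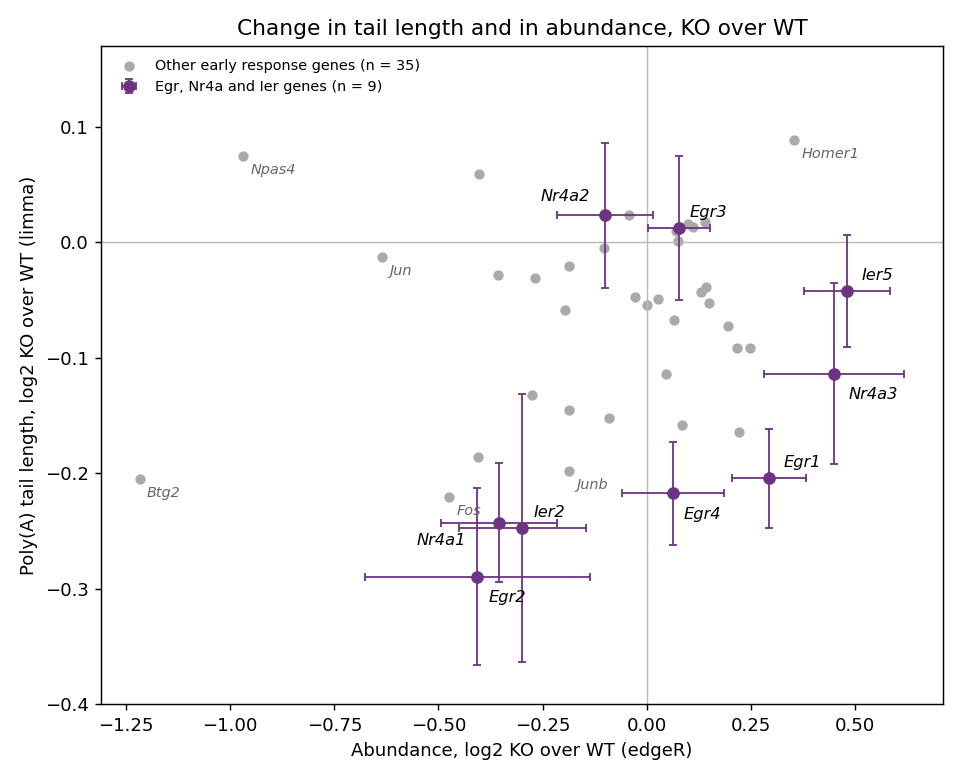
Log2 KO over WT of tail length (vertical, limma) against that of abundance (horizontal, edgeR), each over 3 KO and 3 WT samples, for the 9 genes (purple, with SE) and 35 other early response genes (grey). Egr1 has a shorter tail and a higher mean level in KO, while Egr2, Nr4a1 and Ier2 have lower means of both. Most of these points did not pass a test over all genes.

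Across the 6 samples, Pearson's r of tails was 0.97 between Egr1 and Egr4, 0.97 between Egr1 and Nr4a1 and 0.98 between Egr4 and Nr4a1, and Egr2 had an r of 0.77 with Egr1, 0.76 with Egr4 and 0.83 with Nr4a1. The tails of these 4 genes were each lower in KO without overlap, though none passed the test. The r values span both genotypes and so include that difference, and r within a genotype was not computed. The same measure was 0.06 between Egr1 and Egr3 and 0.04 between Egr1 and Nr4a2. In abundance (log2 CPM), Egr1 and Ier5 had an r of 0.98, and Egr1 and Nr4a1 one of 0.31. These are descriptions over 6 libraries of 2 genotypes that share depth and dissection. The genes whose tails ran most like those of Egr1, among 9634, were Abhd17b, Axin2 and Dynlt1c (r of 0.98 to 0.99), and for Nr4a1 they were Cxadr, Fos and Dynlt1c (r of 0.99 each). In abundance, among 11170 genes, those most like Egr1 were Ndufs6, Cacnb1 and Atp6v1g1 (r of 0.99 each), and those most like Nr4a1 were Wdr33, Junb and Slc13a4 (r of 0.98 to 0.99). Each is picked as the highest of many r values over only 6 libraries, and whether values this high are unusual was not tested.

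Among 40 other early response genes, 35 could be tested for tail length, of which 26 had lower and 9 higher values in KO, with a median log2 change of -0.05. None passed the test, and 9 were lower in KO without overlap, as were 8.45% of all 11231 genes tested. This list, too, was drawn up with earlier results of these data known, so its counts are a description and not a test. The smallest p-values in the list belonged to the AP-1 genes Fos and Junb and to Klf4, a zinc finger factor. Fos tails averaged 145 ± 6.85 nt in KO and 169.5 ± 5.17 nt in WT (log2 -0.22; limma, adjusted p = 0.705). Junb tails averaged 115 ± 4.68 nt in KO and 132 ± 5.64 nt in WT (log2 -0.20; limma, adjusted p = 0.705), and those of Klf4 123 ± 3.98 nt in KO and 136 ± 7.22 nt in WT (log2 -0.15; limma, adjusted p = 0.705).

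In abundance, 37 of the 40 were tested, of which 19 were lower and 18 higher in KO, and 3 fell and 1 rose past the threshold. Over all 12421 genes tested, 0.459% passed with a lower and 0.572% with a higher level in KO. Btg2, an antiproliferative gene that recruits deadenylases, fell to 14.2 ± 0.97 CPM in KO, against 33.1 ± 4.13 CPM in WT (log2 -1.22; edgeR, adjusted p = 1.4e-05). Npas4, a neuron-restricted activity-dependent factor, fell to 12.4 ± 2.48 CPM in KO, against 24.3 ± 7.06 CPM in WT (log2 -0.97; edgeR, adjusted p = 0.0108). Jun, the partner of Fos in AP-1, fell to 29.1 ± 2.51 CPM in KO, against 45.6 ± 2.66 CPM in WT (log2 -0.64; edgeR, adjusted p = 0.00253). Homer1, a postsynaptic scaffold with an activity-induced short form, rose to 142 ± 16.5 CPM in KO, against 111 ± 5.60 CPM in WT (log2 0.35; edgeR, adjusted p = 0.0275).

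The kinases and factors that act upstream of these genes, a list of 21, showed no call in either measure. For tails, 19 were tested, with 13 lower and 6 higher in KO and a median log2 change of -0.03. The smallest p-values belonged to the kinase Rps6ka5 (139 ± 13.2 nt in KO and 155 ± 6.02 nt in WT), the factor Mef2c (154 ± 1.04 nt in KO and 161 ± 0.41 nt in WT) and the coactivator Crebbp (164 ± 7.52 nt in KO and 176 ± 11.2 nt in WT). For abundance, 8 of the 19 were lower and 11 higher in KO, led by the Srf partner Elk1 at 27.6 ± 3.78 CPM in KO and 36.2 ± 3.98 CPM in WT (log2 -0.39; edgeR, adjusted p = 0.177). The kinase Map2k1 had a log2 change of -0.17 (edgeR, adjusted p = 0.222) and the protein kinase A subunit Prkaca one of 0.18 (edgeR, adjusted p = 0.237). The 7 cofactors had 1 lower and 6 higher levels in KO and none passed, with the smallest p-values for the phosphatase subunit Ppp2r2a, a partner of Ier5 (log2 0.16; edgeR, adjusted p = 0.366), Rxrg (log2 0.22) and Nab1 (log2 0.25).

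Promoters of 6 of the 9 genes were at hand from RefSeq (GRCm38.p6), each from 250 bases before to 50 after a start site. TGACG, the core of the site for the activity-regulated factor Creb1, was searched on both strands and occurs in 20.8% of 32851 such promoters. It occurs 4 times each in Nr4a1, Nr4a2 and Nr4a3, 2 times in Egr4 and in 3 of the 5 Egr2 start sites, and not in Ier5. The palindrome TGACGTCA, found in 1.79% of promoters, is in none of the 6. The CArG box bound by Srf is in 1.63% of promoters and in those of 4 of 5 Egr2 start sites. The 3 Egr2 windows with TGACG overlap and hold the same TGACG matches and the same CArG box. The other Egr2 window with a CArG box holds a different one. The Egr site GCGGGGGCG, found in 2.91% of promoters, occurs in Nr4a1 alone among these 6, 60 bases before its start. The promoter of Nr4a1, with shorter tails in KO, and those of Nr4a3 and Ier5, with levels higher in KO without overlap, are shown 5′ to 3′ on the strand of the gene, with TGACG or its complement in capitals.
Nr4a1 (chr15:101266596-101266895, plus strand): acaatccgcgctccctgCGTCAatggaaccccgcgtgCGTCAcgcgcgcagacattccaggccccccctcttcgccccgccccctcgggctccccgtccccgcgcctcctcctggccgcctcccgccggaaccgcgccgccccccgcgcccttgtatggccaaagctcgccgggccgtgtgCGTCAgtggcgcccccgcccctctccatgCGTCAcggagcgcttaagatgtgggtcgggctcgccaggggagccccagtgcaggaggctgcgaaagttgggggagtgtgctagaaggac
Nr4a3 (chr4:48045055-48045354, plus strand): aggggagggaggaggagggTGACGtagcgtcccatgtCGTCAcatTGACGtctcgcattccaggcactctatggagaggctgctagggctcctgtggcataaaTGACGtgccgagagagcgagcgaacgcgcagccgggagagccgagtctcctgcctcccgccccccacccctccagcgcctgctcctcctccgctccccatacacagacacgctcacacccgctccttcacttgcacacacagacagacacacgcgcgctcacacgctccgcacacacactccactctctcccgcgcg
Ier5 (chr1:155099587-155099886, minus strand): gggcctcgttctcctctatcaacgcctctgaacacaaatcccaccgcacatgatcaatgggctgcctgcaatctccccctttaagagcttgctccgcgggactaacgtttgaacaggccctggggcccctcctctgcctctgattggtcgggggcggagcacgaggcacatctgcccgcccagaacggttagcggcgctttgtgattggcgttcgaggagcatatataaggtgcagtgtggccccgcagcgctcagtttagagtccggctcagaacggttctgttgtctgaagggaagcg
The Nr4a1 window starts 250 bases before the first base of the 7-exon isoform. The Nr4a3 window holds the annotated start of ENSMUST00000030025.9, with 36.6% of the gene's reads. The leading Nr4a3 isoform, ENSMUST00000153369.1 (63.4%), starts outside it, at 48049114. The Nr4a2 window likewise leaves out the start of the leading isoform ENSMUST00000028166.8 (52.8%), at 57115038. Matches near those starts were not searched. A match or its absence says only which letters these windows hold.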

How the data were processed

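Poly(A) RNA of mouse cortex was sequenced on PromethION flow cells, per the labels' protocols. Per the file headers, the authors deposited for each transcript and sample a mean tail length in nt, the read count behind it and an RPM value. How tails were estimated is not stated in these sources. DESeq2, Salmon 1.5.2, SAMtools 1.9, minimap2 2.17 and the build mm10 are listed in the submitters' processing notes, with no roles. Per the file headers, the authors' comparison holds a mean normalized signal, a log2 fold change of unstated direction, its error, a test score and a p-value per transcript. Whole reads, within 0.01, were recovered from 99.9% to 100% of the deposited RPM values of a sample. An edgeR test on these reads called 103 genes.

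Rows were merged by gene symbol (10 gene records for the 9 genes), and a gene's tail was the mean over its reads. Tails were tested as log2(nt + 1) with limma 3.58.1 (variance trend on tail length) where each sample had 10 or more reads, and counts with edgeR 4.0.16 (TMM, filterByExpr, quasi-likelihood), in R 4.3.3. Two-sided p-values were adjusted by Benjamini-Hochberg over all features, with a threshold of 0.05. On simulated data, the gene tail test (11231 genes) recovered 29% of changes of 1.19-fold and 74% of 1.41-fold, and the isoform test (16168) 17% and 62%. The abundance test (12421) recovered 82% of 1.5-fold and 100% of 2-fold changes. Its changed genes were drawn only from those with a mean of 30 or more reads, so recovery for genes with fewer reads was not measured. False calls were 8 for gene tails, 4 for isoform tails and 10 for abundance. Depth was 2404074 to 3849077 tail reads per sample, so genes with few reads, such as Egr2 and Ier2, have imprecise means.

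The 9 genes and the related lists were chosen with earlier results of these data known, which had shown the shorter Egr1, Egr4 and Nr4a1 tails. All 9 are named. Of the related lists, genes past the threshold are named, or up to 3 with the smallest p. Likeness used genes with at least 5 CPM, or a mean of 30 tail reads. Positions come from GENCODE release 21 (GRCm38), which held 97.9% of the table's transcripts and none of those of the second Egr2 record. Alternatives are listed at the end.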

Additional observations from a re-analysis of the deposited data

Results flagged for a closer look

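For Nr4a2, the tail of ENSMUST00000112629.7 minus that of ENSMUST00000028166.8 ran in opposite directions in the genotypes. It was -23.1, -1.71 and -9.42 nt in KO, where ENSMUST00000112629.7 had the shorter tail in each sample, and 17.9, 17.4 and 6.08 nt in WT, where it had the longer tail in each. The mean difference was -11.4 nt in KO and 13.8 nt in WT, a gap of -25.2 nt. A two-sided exact permutation test of that gap gave p = 0.1, the smallest that 3 against 3 samples allow, and an adjusted p of 0.4 over the 4 genes compared. The gene was flagged because the signs split fully by genotype. Such a split alone fixes the unadjusted p, so the test adds nothing to the flag. These isoforms share their annotated 3′ end at 57106830 on chromosome 2, and the means rest on 23 to 90 reads. How well reads were assigned between these isoforms was not tested.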

How the results depend on the processing

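Of 488 values for single genes and isoforms under alternative settings, 458 kept both direction and side of the threshold. The cause of the other changes was not tested. Tail log2 changes stay the same under another read minimum, another variance trend or the replicate block. Direction could not turn there, so the 458 include directions fixed in advance. No gene or isoform passed the tail test, with or without any 1 library, except with the variance trend on read number, which called 15 genes and 11 isoforms. Egr1 (limma, adjusted p = 4.12e-05), Egr4 (0.0130) and Nr4a1 (0.000248) were among these genes. For abundance, 128 genes passed (57 lower and 71 higher in KO), against 85 with DESeq2 (20 and 65), 254 with no filter (109 and 145), 55 by limma with RPM and a pseudocount of 1 (38 and 17), and 47 with one of 0.1 (32 and 15). Leaving out 1 library gave 57 (without KO replicate 2) to 210 (without WT replicate 1). Without a filter, edgeR called Egr1 (adjusted p = 0.000943) and Nr4a1 (0.00210). Limma on RPM did not call Ier5 (adjusted p = 0.185 and 0.219).

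Directions turned for some tails and for the abundance of Egr2 and Egr4. The Egr3 gene tail was -0.00059 (log2) from its leading isoform and -0.050 to 0.062 over left-out libraries. The Nr4a2 gene tail was -0.023 to 0.055. The Egr3 retained-intron row was 0.019 after centring on sample medians and -0.083 to 0.059 over left-out libraries, and Nr4a2 ENSMUST00000183542.7 was -0.18 to 0.091. Abundance of Egr2 was -0.72 to 0.14 and that of Egr4 -0.12 to 0.21. Keeping the Egr2 records apart, chosen after seeing the data, left 129 abundance calls and 0 tail calls.

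Samples with the same replicate number showed little shared deviation: correlations of same-numbered deviations were 0.00184 to 0.0124 for tails and -0.0663 to 0.0497 for abundance. Differently numbered samples were not compared in this way, so these values cannot settle whether samples were paired when collected. With the replicate block, 0 genes and 0 isoforms passed for tails and 89 genes for abundance, with Egr1 among them (log2 0.30, edgeR, adjusted p = 0.0282).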
